A study of Mus musculus with 16 samples.

Results

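The heat shock chaperones described here are 10 genes, Hspa8, Hspa1a, Hspa1b, Hsp90aa1, Hsp90ab1, Dnajb1, Hspb1, Hsph1, Hspd1 and Hspe1, chosen by symbol and followed through flow-sorted mouse cardiac fibroblasts in which the transcription factor TCF21 was removed or overexpressed. All 10 were listed, and all 10 passed the filter on low values, in each of the 3 deposited tables, which list 18634, 17303 and 17730 genes. RNA from 16 libraries was measured. Every mouse was 8 to 12 weeks old, received tamoxifen, and carried a Cre and a Rosa26-loxP-STOP-loxP EGFP reporter by which fibroblasts were sorted, so the controls carry all of these too. In the uninjured loss comparison, 3 libraries of Tcf21-MerCreMer:Tcf21-fl mice were set against 3 of Tcf21-MerCreMer mice, taken 2 weeks after tamoxifen. In the infused loss comparison, 2 libraries of Tcf21-MerCreMer:Tcf21-fl mice were set against 3 of Tcf21-MerCreMer mice after 1 week of angiotensin II and phenylephrine, 2 agents that raise blood pressure and drive cardiac fibrosis. In the gain comparison, 2 libraries of Pdgfra-creERT:Col1a1-TCF21 mice were set against 3 of Pdgfra-creERT mice after the same infusion. The Cre is thus expressed under Tcf21 in the loss arm and under Pdgfra in the gain arm, and the sorted cells are those that each Cre recombined. Whether each library stands for its own animal is not in the labels, and p-values here measure the spread among libraries, which may be technical.

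Heat shock chaperones bind unfolded or partly folded proteins and help them fold, and many are induced by heat shock factors when a cell's proteins are damaged. Hsp70 proteins bind short exposed stretches of a protein in a cycle driven by ATP, J-domain proteins such as Dnajb1 deliver the protein and start ATP hydrolysis, and Hsp110 proteins such as Hsph1 exchange the nucleotide and release it. Hsp90 proteins act later on kinases and steroid receptors, Hspb1 is a small heat shock protein that holds unfolding proteins without ATP, and Hspd1 with its lid Hspe1 forms the folding chamber of mitochondria. Heat shock genes are also known to be induced while cells are released from a tissue for sorting.

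The regulatory sequence next to these genes is shown first, because the members differ in it and 2 of them are nearly identical in it. RefSeq promoter windows on GRCm38.p6, each from 250 bases before to 50 after a start site, were matched for 7 of the 10 members. Heat shock factors bind inverted repeats of a 5-base unit, and the windows were searched on both strands for 2 such units side by side, GAANNTTC or TTCNNGAA, and for 3 in a row, which contains both forms overlapping. The 2-unit form was found in 6 of the 7 matched members and in 15.1% of 32851 windows of all genes, and the 3-unit form in 3 of the 7 (Hsph1, Hspd1 and Hspe1) and in 0.603% of all windows. A member was counted if any of its windows matched, whereas the shares are of single windows, so the 2 are not like for like. The same site is counted for Hspd1 and for Hspe1, and the nearly identical windows of Hspa1a and Hspa1b are counted separately. A match is a description of letters, not a binding site shown by these data. In the sequences printed below, each 5′ to 3′ on the strand of its gene, capitals mark the searched motif.

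The first pair shows how alike the upstream sequence of Hspa1a and Hspa1b, the stress-inducible Hsp70 genes, is. It gives the 160 bases upstream of each start, chr17:34972157-34972316 and chr17:34959239-34959398, both on the minus strand, and 1 base differs between them. Over the whole 300 bases of the 2 windows, 4 differed, an identity of 98.7%.
Hspa1a: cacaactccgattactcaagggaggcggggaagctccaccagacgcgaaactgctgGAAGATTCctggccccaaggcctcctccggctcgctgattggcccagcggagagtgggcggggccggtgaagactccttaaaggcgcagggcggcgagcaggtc
Hspa1b: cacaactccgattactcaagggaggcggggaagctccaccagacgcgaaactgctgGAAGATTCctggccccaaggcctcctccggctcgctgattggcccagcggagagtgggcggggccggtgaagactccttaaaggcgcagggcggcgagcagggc

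Dnajb1 is shown because it lay below its controls in all 3 comparisons. The 160 bases upstream of its first RefSeq start, chr8:83608015-83608174 on the plus strand, hold no match, nor do its 2 whole windows, which says only that these letters are not in them.
Dnajb1: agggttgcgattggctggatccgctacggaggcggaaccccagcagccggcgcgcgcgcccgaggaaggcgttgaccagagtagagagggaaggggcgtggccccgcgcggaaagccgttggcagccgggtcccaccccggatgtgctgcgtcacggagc

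The last 3 are stretches of 30 bases with motifs of Hspb1 (chr5:135887801-135887830, plus strand), Hsph1 (chr5:149636287-149636316, minus strand, after its start) and Hspe1 (chr1:55088053-55088082, plus strand). The Hsph1 stretch holds 2 of the 3 matches in its window, and the other, upstream of the start, is not printed. The Hspe1 stretch holds 3 overlapping matches and also lies in a window of Hspd1, whose gene runs the other way.
Hspb1: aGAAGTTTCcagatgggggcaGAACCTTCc
Hsph1: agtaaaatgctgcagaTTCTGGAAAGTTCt
Hspe1: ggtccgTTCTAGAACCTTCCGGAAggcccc

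Values are normalized counts made by the authors within each table, so levels are compared with the control libraries of the same table. Tests are limma's moderated test on log2(value + 1) over all genes averaging 10 or more, two-sided and adjusted after Benjamini and Hochberg, and a gene is said to have risen or fallen where the adjusted p was below 0.05. Libraries summed to between 27814940 and 40970391 normalized counts. The labels held: Tcf21 averaged 1405 ± 271 in deleted against 7805 ± 288 in control uninjured libraries (SD, n = 3 each), 222 ± 51.9 (n = 2) against 2042 ± 684 (n = 3) in the infused loss table, and 14161 ± 932 (n = 2) against 5813 ± 585 (n = 3) in the gain table. All 8 fibroblast markers were listed and summed to between 2933000 and 4578000 per library, with the groups of the gain table apart. Cardiomyocyte markers summed to between 539 and 1071, also with the groups of the gain table apart. Of these, 9 of 10 were listed in the uninjured table, which lacks Ryr2, and all 10 in the other 2. Of 8 lymphoid markers 1 or 2 were listed, and of 6 mesothelial markers 1 or 2. Deleted infused library 2 stood apart for the chaperones, with 9 of 10 above the control mean and a median of 0.67 on the log2 scale, against 4 of 10 and -0.067 in deleted infused library 1. Control infused library 3 stood apart for Hspa1a and Hspa1b.

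**Figure D1:**
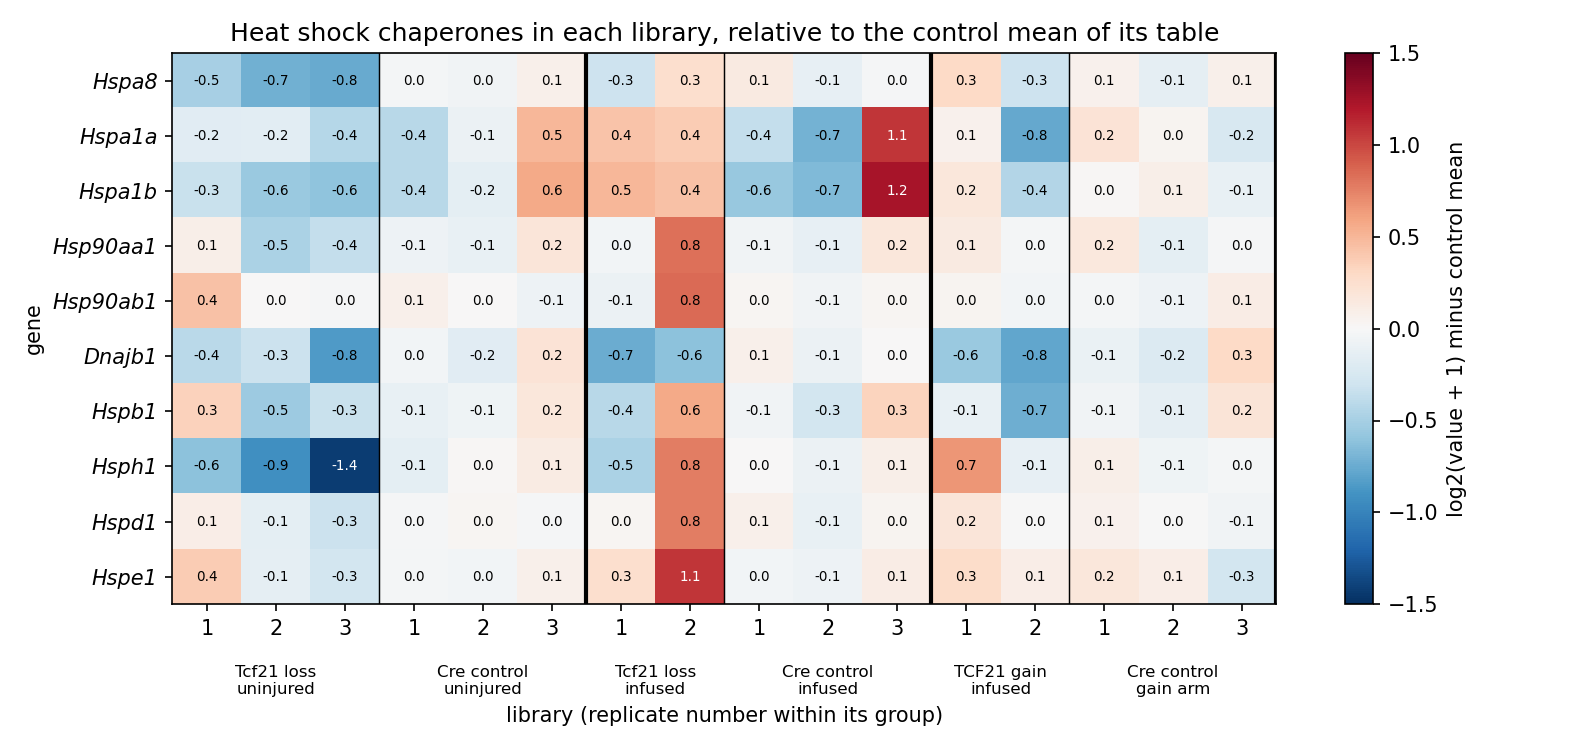
Each cell is a library's log2(value + 1) minus the control mean of its own table, for the 10 chaperone genes (rows) in 16 libraries (columns, by group; Tcf21 changed left of its control). Dnajb1 is below 0 in all 7 libraries with Tcf21 deleted or TCF21 overexpressed, Hsph1 reaches -1.42 in deleted uninjured library 3, and deleted infused library 2 is above 0 for 9 of 10 genes.

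Genes were set side by side per kilobase of the longest annotated protein-coding transcript, which need not be the one expressed. On that scale the order of the 3 highest members was the same in all 6 groups, with Hspa8 first, then Hsp90ab1, the constitutive Hsp90, and then Hspb1. In uninjured hearts Hspa8, the constitutive Hsp70 that also strips clathrin from vesicles, had 12870 ± 1299 normalized counts per kilobase in deleted libraries and 20270 ± 951 in controls (SD, n = 3 each), while Hsp90ab1 had 12200 ± 2285 and 10960 ± 572. Their ranges overlapped in the deleted libraries, 11970 to 14360 for Hspa8 and 10790 to 14830 for Hsp90ab1, and were apart in the controls, 19590 to 21360 and 10360 to 11500. Hsph1 was the lowest member in 5 of the 6 groups, at 411 ± 112 per kilobase in deleted and 794 ± 75.1 in control uninjured libraries, and in TCF21-overexpressing libraries Hspa1a was lowest, at 578 ± 228 (n = 2), its range overlapping that of Hsph1. The members between lay close together, and in the controls of the gain arm, for example, Hsp90aa1 at 1887 ± 205 and Dnajb1 at 1740 ± 330 per kilobase overlapped (n = 3).

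Without injury, 2 of the 10 chaperones fell after Tcf21 was deleted, Hspa8 and Hsph1, 0 rose and 8 did not pass the test. Over all 15544 genes tested, 3.58% passed, 253 higher and 304 lower. The fold change was below 0 for 9 of 10 members, with a median of -0.25 on the log2 scale against -0.012 over all genes. Summed over the 10 genes, normalized counts were 81010 to 107000 in deleted and 108700 to 119600 in control libraries. In bulk RNA of sorted cells, fewer cells of a type and less RNA per cell cannot be told apart.

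Hspa8 (ENSMUSG00000015656, chromosome 9, 40800984 to 40810087, plus strand, GRCm38) had 34373, 29398 and 28655 normalized counts in the deleted uninjured libraries, against 47545, 46896 and 51124 in their controls. Every deleted library lay below every control. The gene fell by 0.66 on the log2 scale (SE 0.091, adjusted p = 0.00952), a level 1.58-fold lower. It passed in 5 of 6 fits that left out 1 library, and without control library 3 the fall of 0.62 had an adjusted p of 0.0551. A fit without a variance trend gave an adjusted p of 0.0945.

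Hsph1 (ENSMUSG00000029657, chromosome 5, 149614287 to 149636376, minus strand) had 1969, 1592 and 1123 normalized counts in deleted libraries and 2717, 3058 and 3285 in controls. The groups did not overlap, and deleted library 3 was the lowest. Hsph1 fell by 0.98 on the log2 scale (SE 0.18, adjusted p = 0.0287), the lowest fold change among the 10 members. It passed in 2 of 6 fits that left out 1 library, the adjusted p being 0.0587 without deleted library 2 and 0.0706, 0.126 and 0.135 without control libraries 1, 2 and 3. Without a variance trend it was 0.144.

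Dnajb1 (ENSMUSG00000005483, chromosome 8, 83608193 to 83612653, plus strand), the main stress-inducible J-domain partner of Hsp70, had 4820, 5098 and 3557 normalized counts in deleted libraries and 6239, 5680 and 7386 in controls. The groups again did not overlap, but the log2 fold change of -0.53 (SE 0.15) did not pass, with an adjusted p of 0.0853. Non-overlap in itself is common here: it held for 3 of 10 members and for 27.7% of all genes tested. Dnajb1 and Hsph1 share 0.475% and 0% of their 31-base words with other annotated genes, and Hspa8 79.7%, most of it with the pseudogene Gm15459, which none of the tables lists. Hsp90aa1, Hspe1, Hspb1 and Hspd1 share 62.9%, 59.1%, 58.4% and 55.8%, and Hsp90ab1 16.6%. How reads were assigned is unknown, which also limits the order of members per kilobase.

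The inducible Hsp70 genes spread most among the controls. Hspa1a had 3369, 3398 and 2811 normalized counts in deleted libraries and 2844, 3578 and 5351 in controls, and Hspa1b had 2726, 2339 and 2276 against 2582, 3104 and 5105. Control library 3 was the highest for both, and the groups overlapped. Their log2 fold changes of -0.25 and -0.50 did not pass (adjusted p = 0.510 and 0.230), nor did that of the pair summed as 1 gene (-0.36, adjusted p = 0.344).

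Neither Hsp90 gene passed. The inducible Hsp90aa1 had 7145, 4853 and 5274 normalized counts in deleted libraries and 6422, 6260 and 7649 in controls, and its log2 fold change was -0.25 (95% interval -0.58 to 0.078). Hsp90ab1 had 37380, 27635 and 27191 against 28992, 27731 and 26114, and it was the only member with a positive log2 fold change, 0.14 (-0.14 to 0.42). Deleted library 1 was the highest of the 6 for Hsp90ab1, Hspb1, Hspd1 and Hspe1.

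Of the mitochondrial pair, Hspd1 had 4573, 3853 and 3419 normalized counts in deleted libraries and 4212, 4348 and 4215 in controls, and Hspe1 had 1259, 881 and 797 against 941, 939 and 1012. Their log2 fold changes were -0.12 (95% interval -0.36 to 0.12) and -0.0057 (-0.38 to 0.37). For both genes the deleted libraries lay on both sides of the controls, which were close together. The small heat shock protein gene Hspb1 did likewise, with 9430, 5094 and 5906 normalized counts in deleted libraries, 6868, 7122 and 8358 in controls and a log2 fold change of -0.18 (-0.63 to 0.28).

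**Figure D2:**
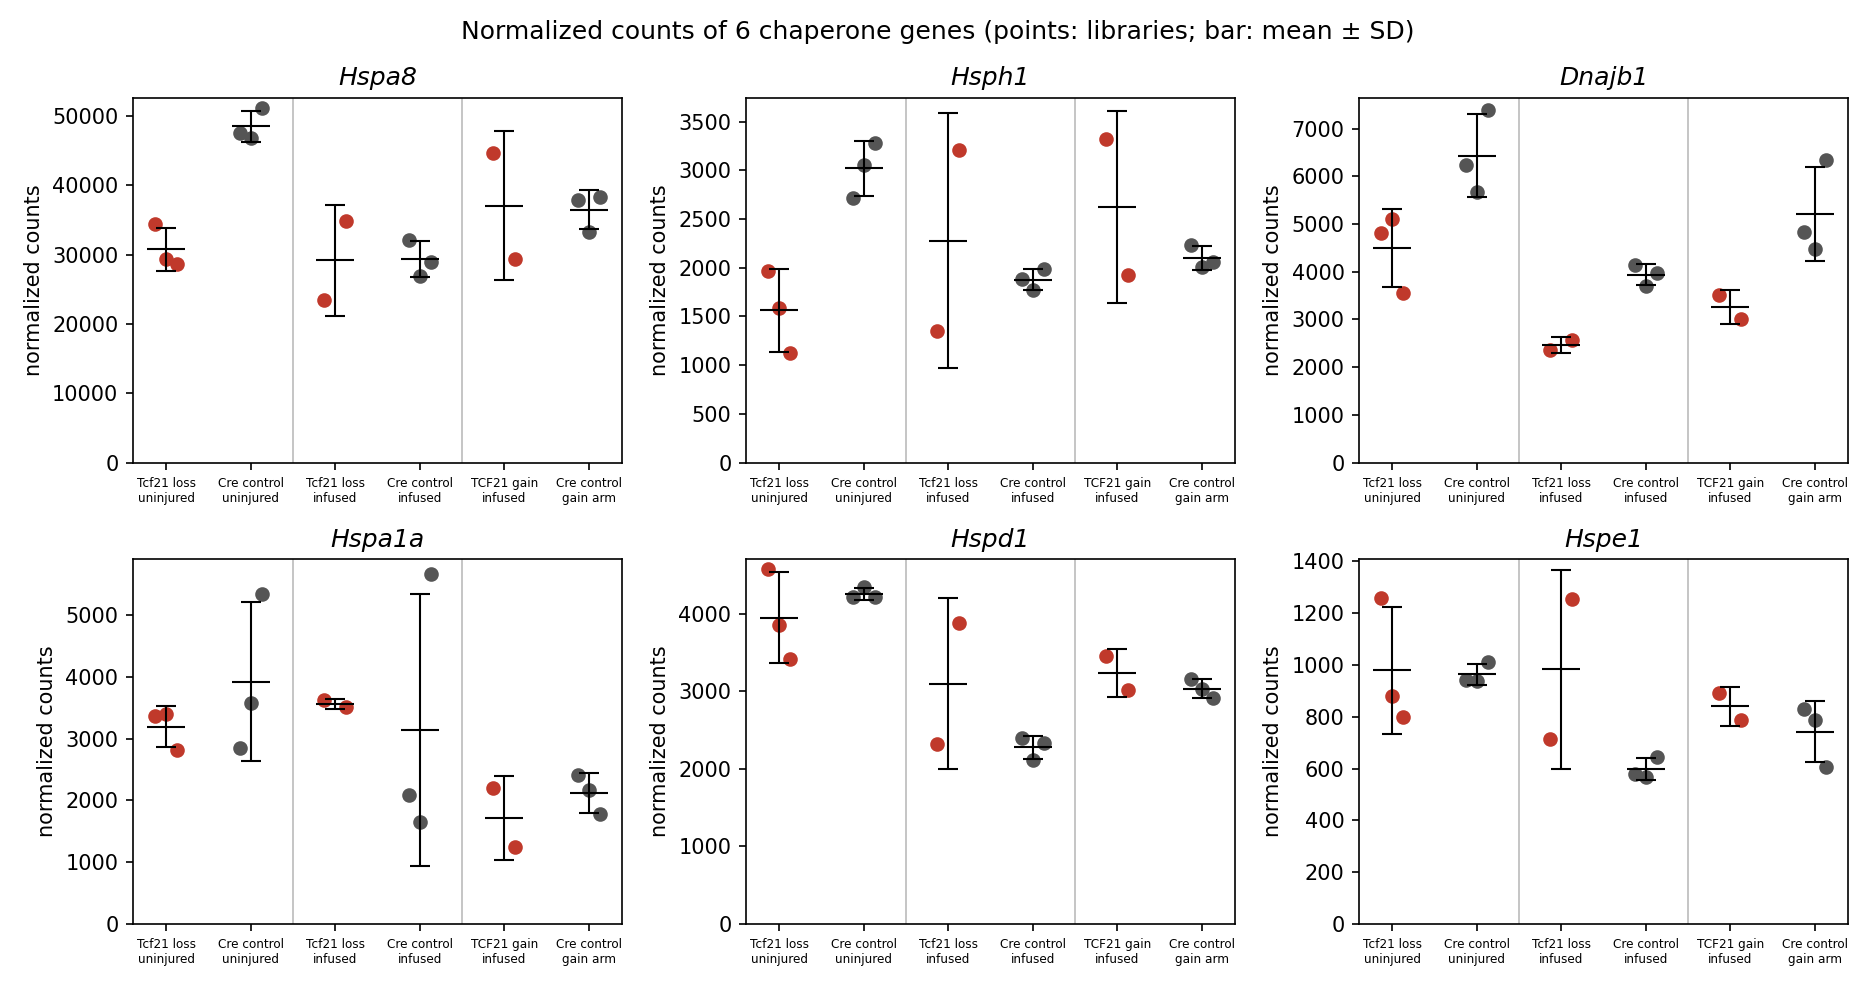
Normalized counts (vertical axis, from 0) of 6 chaperone genes in each library (points), with the mean and SD of each group (bars); red groups have Tcf21 deleted or TCF21 overexpressed and grey groups are their controls, in 3 separately normalized tables. Hspa8 and Hsph1 are apart in the uninjured table only, Dnajb1 lies below its controls in all 3, and the 2 deleted infused libraries are far apart for Hspa8, Hsph1, Hspd1 and Hspe1.

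Partners of the Hsp70 and Hsp90 machines were followed in a list of 33 co-chaperones and heat shock factors. Without injury 2 of the 33 fell, 0 rose and 31 did not pass, with a median log2 fold change of -0.042. Dnaja1, a J-domain partner of Hspa8, fell by 0.45 (SE 0.094, adjusted p = 0.0395), at 6816 ± 706 normalized counts in deleted and 9306 ± 619 in control libraries (SD, n = 3 each). Hspa2, an Hsp70 best known from the testis, fell by 0.68 (SE 0.15, adjusted p = 0.0476), at 444 ± 72.9 against 704 ± 13.9. Each of the 2 passed in 1 of 6 fits that left out 1 library, the one without deleted library 1, with adjusted p up to 0.15 and 0.19 in the other fits. The Hsp90 partner Chordc1 (-0.45, adjusted p = 0.0904) and the ubiquitin ligase Stub1 (0.30, adjusted p = 0.118) came next and did not pass. None of 10 mitochondrial chaperones and proteases (median 0.095) and none of the 8 subunits of the cytosolic TRiC chaperonin (median 0.14) passed. Of 14 chaperones of the endoplasmic reticulum 5 rose, 0 fell and 9 did not pass, at a median of 0.53, and no test sets this list against the others. Pdia4 (0.90, SE 0.13, adjusted p = 0.0109) passed in 4 of 6 fits that left out 1 library, Calr (0.74, SE 0.13, adjusted p = 0.0244) and Creld2 in 3, and Hyou1 and Sdf2l1 in 2. The 14 genes summed to 223900 to 346400 normalized counts in deleted libraries, library 1 the highest, and to 184400 to 195200 in controls.

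Some summed markers of other cell types differed between these groups, and only the mural list had markers past the test. Endothelial markers, all 8 listed, summed to 12330 to 13940 normalized counts in deleted and 16100 to 16270 in control libraries, with Cdh5 at 0 in the deleted ones. Most of that sum is Tek, at 12616 ± 838 against 15353 ± 76.2 (SD, n = 3 each), and 5 of the 6 tested were below 0, with 0 past the test. Mural markers, all 8 listed, summed to 9971 to 11300 against 15110 to 16850. Of these 4 fell, Cspg4 passing in all 6 fits that left out 1 library, Abcc9 in 4, Vtn in 2 and Kcnj8 in 1. Erythroid and platelet markers, all 8 listed, summed to 374 to 1199, the highest in deleted library 1, against 263 to 299. Myeloid markers, 7 of 8 listed, summed to 1217 to 1978 against 1096 to 1213. None of the 6 tested erythroid and platelet markers passed, and none of the 7 tested myeloid markers. Schwann and neuronal markers, 3 of 6 listed, summed to 1790 to 2191 against 1546 to 1637. Of these, 2 were above 0 and 1 below, and 0 passed. The immediate early genes, known to be induced by cell isolation too, summed to 774900 to 829700 in deleted and 777000 to 1014000 in control libraries, with 1 of 25 fallen (Nr4a1, -0.85, adjusted p = 0.0227, up to 0.106 and not past the test without deleted library 2 or control library 1 or 3). The part of these in the values of Hspa8, Hsph1 and their partners was not tested.

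During infusion, 1 of the 10 chaperones fell after deletion of Tcf21, Dnajb1, 0 rose and 9 did not pass. Over all 14799 genes tested, 0.912% passed, 48 higher and 87 lower. The other members mostly leaned upward, with 8 of 10 fold changes above 0 and a median of 0.385 against 0.00017 over all genes, but the 2 deleted libraries differed widely. Their 10 genes summed to 65360 in library 1 and 104400 in library 2, against 66040 to 83470 in the 3 controls.

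Dnajb1 had 2353 and 2576 normalized counts in the deleted infused libraries, against 4147, 3707 and 3967 in their controls. Both deleted libraries were low, and library 2 lay below the control mean for Dnajb1 and above it for the 9 others. The gene fell by 0.68 on the log2 scale (SE 0.095, adjusted p = 0.0334). Leaving out any of the 5 libraries ended the call, with falls of 0.61 to 0.74 and adjusted p of 0.0576 to 0.177, and a fit without a variance trend gave 0.155.

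Hspe1 (ENSMUSG00000073676, chromosome 1, 55088132 to 55091307, plus strand) had 712 and 1255 normalized counts in deleted infused libraries and 580, 567 and 646 in controls. Both deleted libraries lay above every control, yet the log2 fold change of 0.66 (SE 0.23) had an adjusted p of 0.244. Without overlap were 2 of 10 members, Dnajb1 below and Hspe1 above, and 35% of all genes tested. Its partner Hspd1 had 2321 and 3877 against 2391, 2112 and 2335, so that library 1 lay among the controls and library 2 above them, and its log2 fold change was 0.40 (95% interval -0.093 to 0.89).

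Hsp90ab1, Hsp90aa1, Hsph1, Hspb1 and Hspa8 were split between the 2 deleted libraries. Hsp90ab1 had 18088 and 34583 normalized counts in deleted infused libraries and 19599, 18564 and 19560 in controls, so library 2 was the highest and library 1 the lowest of the 5. Hsph1 had 1351 and 3208 against 1882, 1767 and 1989. Hspa8 had 23514 and 34860 against 32072, 26966 and 29008. For each of the 3, library 1 lay below all controls and library 2 above them all. Hsp90aa1 had 4179 and 7669 against 4155, 3971 and 4868, and Hspb1 4004 and 7883 against 5116, 4406 and 6696. The log2 fold changes of these 5 genes lay between -0.032 (Hspa8) and 0.39 (Hsp90aa1), and leaving out a deleted library turned the direction of all 5, Hsph1 ranging from -0.47 to 0.77.

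Hspa1a and Hspa1b depended on a control. Hspa1a had 3622 and 3506 normalized counts in deleted infused libraries and 2093, 1643 and 5670 in controls. Hspa1b had 5217 and 5028 against 2499, 2335 and 8732. The deleted libraries lay close together between control library 3 and the other 2, and the log2 fold changes of 0.40 and 0.47 did not pass (adjusted p = 0.711 and 0.705). Without control library 3 they were 0.94 (adjusted p = 0.0366) and 1.08 (adjusted p = 0.00967), and both passed. The 2 genes lie 9951 bases apart on chromosome 17 (Hspa1a, ENSMUSG00000091971, 34969190 to 34972156, and Hspa1b, ENSMUSG00000090877, 34956436 to 34959238, both on the minus strand) and share 63.8% and 67.6% of their 31-base words with each other, so how reads were divided between them is uncertain. Their sum had a log2 fold change of 0.44 (adjusted p = 0.709).

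In the infused loss table none of 32 tested co-chaperones and heat shock factors passed, at a median of 0.16, nor did any of 9 mitochondrial chaperones and proteases (median 0.0042), 8 TRiC subunits (0.24, all 8 above 0) or 14 endoplasmic reticulum chaperones (0.70, 13 above 0). The smallest p among the co-chaperones were those of Dnajb2 (-0.39, adjusted p = 0.192) and Bag1, a nucleotide exchange factor of Hsp70 (0.37, adjusted p = 0.196). Endoplasmic reticulum chaperones summed to 207400 in deleted library 1 and 412400 in deleted library 2, against 177700 to 191800 in controls. Immediate early genes summed to 260000 to 316900 in deleted and 363300 to 562700 in control infused libraries, with 0 of 25 past the test and 23 below 0 at a median of -0.47. Endothelial markers, all 8 listed, summed to 2820 to 3330 against 3726 to 6821. Most of that sum is Tek, at 2702 ± 310 (n = 2) against 5053 ± 1507 (n = 3, SD), whereas 5 of the 7 tested were above 0, at a median of 0.32, and 0 passed. Mural markers summed to 5232 to 6333 against 5540 to 7144. Schwann and neuronal markers, 3 of 6 listed, summed to 821 to 851 against 774 to 945. Erythroid and platelet markers, 6 of 8 listed, summed to 182 to 504 against 71.1 to 78.6. Of the 5 tested, 4 were above 0 and 1 rose (Hba-a1, 4.06, adjusted p = 0.038). Myeloid markers, 7 of 8 listed, summed to 417 to 723 against 761 to 934. Adgre1, too low to be tested, was at 0 in the deleted libraries and ranged from 0 to 21.1 in controls. All 5 tested were below 0 and 1 fell (Cd74, -2.29, adjusted p = 0.0398). Neither Hba-a1 nor Cd74 passed without control library 1 (adjusted p = 0.0591 and 0.0687) or control library 2 (0.162 and 0.151). Both passed without control library 3 (0.0324 and 0.0259). With deleted library 1 or 2 left out, 1 library stands for its group. The log2 fold changes were then 3.29 and 4.82 for Hba-a1 and -2.61 and -1.97 for Cd74. The part of these in the values of Dnajb1 was not tested.

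With TCF21 overexpressed during infusion, none of the 10 chaperones passed the test by limma, and 1 (Dnajb1) had an unadjusted p below 0.05, as did 20.4% of all genes. Over all 15369 genes tested, 4.14% passed, 242 higher and 395 lower; scaled to equal library totals, 606 passed, 340 of them higher, and the median of all genes was 0.105 in place of 0.0066. The members' median log2 fold change was -0.0032, and the 10 genes summed to 101900 and 77840 in the overexpressing libraries, against 86010 to 97630 in controls.

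Dnajb1 had 3513 and 3009 normalized counts in overexpressing libraries and 4829, 4475 and 6336 in their controls. Both overexpressing libraries lay below every control. Of the 10 members 1, Dnajb1, was without overlap, as were 39.3% of all genes tested, in either direction. The log2 fold change was -0.66 (SE 0.16, adjusted p = 0.0642), and -0.57 with equal library totals. Left out in turn, control libraries 2 and 3 brought the gene past the threshold, at -0.77 and -0.52, and the adjusted p over the 5 such fits ranged from 0.0397 to 0.307.

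The other members did not separate. Hspb1, second in size of change, had 6686 and 4331 normalized counts in overexpressing libraries and 6934, 6595 and 8227 in controls, at a log2 fold change of -0.42 (SE 0.19, adjusted p = 0.256). Hspa1a had 2193 and 1237 against 2411, 2164 and 1775, and Hspa1b 3093 and 2026 against 2794, 2923 and 2553. In these 3 genes library 2 was the lowest of the 5. Hsph1 had 3322 and 1926 against 2236, 2010 and 2054, and Hspa8 44659 and 29439 against 37957, 33229 and 38267, with library 1 the highest and library 2 the lowest of the 5 in each.

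The Hsp90 and mitochondrial genes overlapped their controls too. Hsp90ab1 had 27339 and 26012 normalized counts in overexpressing libraries and 26123, 25229 and 28801 in controls (log2 fold change -0.00044, 95% interval -0.25 to 0.24). Hsp90aa1 had 6753 and 6062 against 6906, 5572 and 6095 (0.053, -0.21 to 0.32). Hspd1 had 3451 and 3013 against 3161, 3024 and 2918 (0.089, -0.13 to 0.31), and Hspe1 893 and 787 against 829, 788 and 607 (0.19, -0.18 to 0.56). None of the 4 intervals excludes 0.

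**Figure D3:**
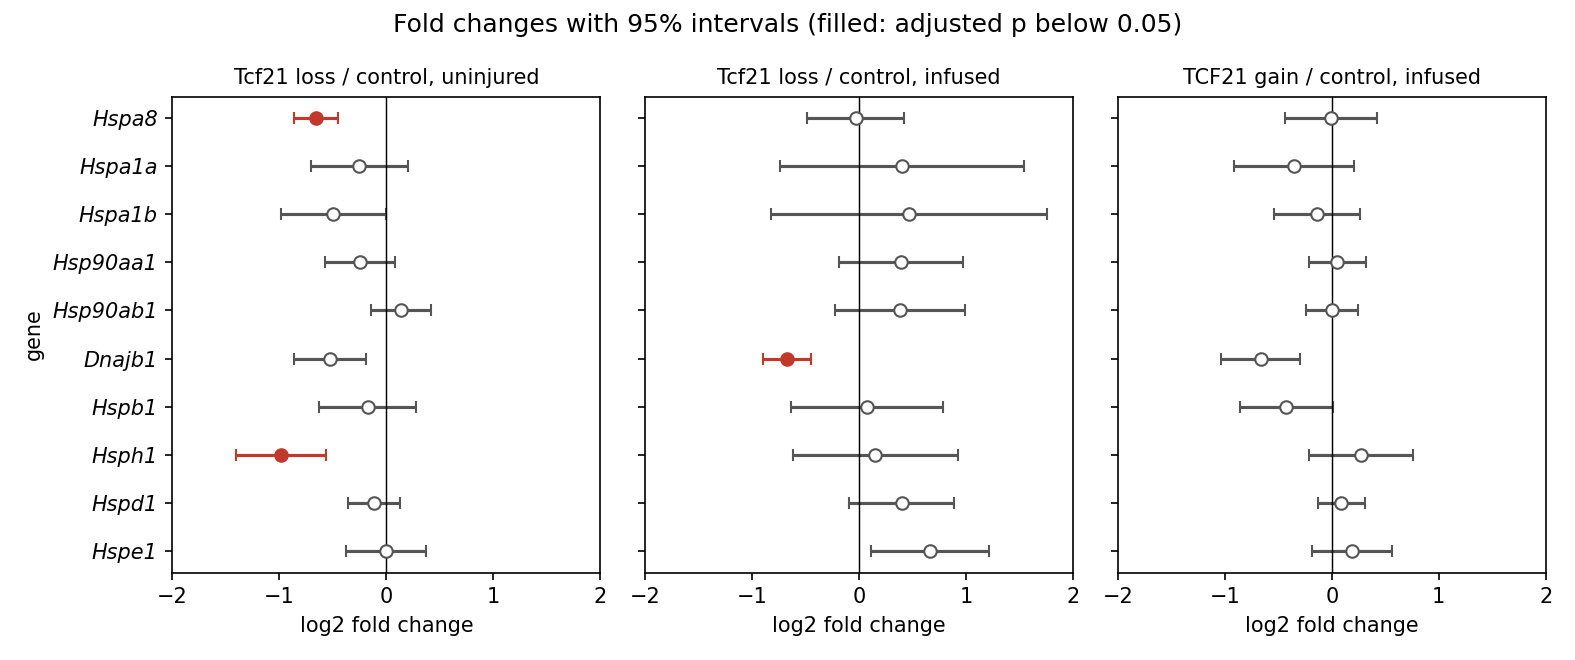
Log2 fold changes (horizontal axis, Tcf21 deleted or TCF21 overexpressed over control) of the 10 chaperone genes in 3 comparisons, with 95% intervals from limma; filled red points have an adjusted p below 0.05. Hspa8 and Hsph1 pass in uninjured loss and Dnajb1 in infused loss, and the intervals of Hspa1a and Hspa1b are widest in infused loss.

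Among 33 co-chaperones and heat shock factors in the gain table, 1 fell, 0 rose and 32 did not pass, with a median of 0.0098. Dnajb4, a J-domain protein close to Dnajb1, fell by 0.52 (SE 0.10, adjusted p = 0.0426), at 2947 ± 398 normalized counts in overexpressing (n = 2) and 4202 ± 177 in control libraries (n = 3, SD). With any 1 of the 5 libraries left out it did not pass (adjusted p 0.0568 to 0.246). Dnajb5, a further member of that family, had a log2 fold change of 0.62 (adjusted p = 0.0514), and Stip1, which links Hsp70 to Hsp90, 0.35 (adjusted p = 0.0636). None of 10 mitochondrial chaperones and proteases (median -0.0215), 8 TRiC subunits (0.13, all 8 above 0) or 14 endoplasmic reticulum chaperones (0.32, 13 above 0) passed. TRiC subunits summed to 42670 to 43580 in overexpressing and 36350 to 41140 in control libraries. Endoplasmic reticulum chaperones summed to 259100 to 273500 against 207700 to 230300. Immediate early genes summed to 379500 to 447500 in overexpressing and 605600 to 892300 in control libraries. Of the 25, 24 were below 0, at a median of -0.78. Past the test, 1 rose (Egr3, 1.39, adjusted p = 0.00686) and 7 fell, Gadd45b by 1.16 (adjusted p = 0.00308) and Btg2, Fosb, Ier3, Jund, Klf2 and Zfp36 by 0.75 to 1.29. With 1 library left out, Egr3 and Gadd45b passed in all 5 fits, Btg2 in 4 (not without overexpressing library 2) and the other 5 genes in 2 (not without either overexpressing library or control library 1). Fibroblast markers, all 8 listed, summed to 3007000 to 3255000 in overexpressing and 4288000 to 4578000 in control libraries, with 7 of 8 below 0 at a median of -0.35 and 0 past the test (Dcn -0.81, adjusted p = 0.118, and Gsn -0.78, adjusted p = 0.434). Endothelial markers, all 8 listed, summed to 5199 to 6393 against 7970 to 11050. Most of that sum is Tek, which fell by 0.80 (adjusted p = 0.0297, and in 2 of 5 fits that left out 1 library), at 5315 ± 526 (n = 2) against 9289 ± 1490 (n = 3, SD). Of the 8 endothelial markers 5 were above 0, at a median of 0.26, Emcn at 1.34 and Esam at 1.13 among them, and 0 rose. Mural markers, all 8 listed, summed to 4915 to 5465 against 4613 to 5602. Of these, 6 were below 0, at a median of -0.26, and 1 rose (Des, 0.79, adjusted p = 0.0419, and 0.0675 without control library 1). Without overexpressing library 1 or 2, which leaves 1 library in the group, the log2 fold change of Des was 0.849 and 0.735. Erythroid and platelet markers, 7 of 8 listed, summed to 328 to 385 against 247 to 330. Myeloid markers, all 8 listed, summed to 2298 to 4500 against 1969 to 3225. Schwann and neuronal markers, 3 of 6 listed, summed to 1008 to 1112 against 1378 to 1491, with all 3 below 0 and 0 past the test. Cardiomyocyte markers, all 10 listed, summed to 1015 to 1071 in overexpressing and 851.5 to 907.8 in control libraries. Of the 9 tested, 6 were below 0 and 1 rose (Actc1, 1.27, adjusted p = 0.0315, and 0.0856 without control library 1). Without overexpressing library 1 or 2, the log2 fold change of Actc1 was 1.15 and 1.38. The part of these in the values of Dnajb1 and Dnajb4 was not tested.

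Dnajb1 was the member whose libraries lay on the same side in every comparison. Its 7 libraries with Tcf21 deleted or TCF21 overexpressed all lay below all controls of their own table. The same held for 151 of 13939 genes tested in all 3 tables, or 1.08%, and 147 (1.05%) lay above in all 3. The 3 comparisons share no library. During infusion its log2 fold change was -0.66 with overexpression, which did not pass, and -0.68 with deletion, which did until any 1 library was left out (adjusted p 0.0576 to 0.177). The difference between the gain and the loss effect was 0.012 (95% interval -0.43 to 0.46, adjusted p = 0.985).

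The difference of the deletion effect with and without infusion was tested in 1 fit over the 4 loss groups, in which a constant offset between the 2 tables cancels. None of the 10 members passed, against 0.149% of 14130 genes, and 2 of the 10 had an unadjusted p below 0.05, as did 11.6% of all genes. For Hsph1 the effect with infusion was higher by 1.13 on the log2 scale (SE 0.41, adjusted p = 0.359), and for Hspa8 by 0.63 (SE 0.21, adjusted p = 0.337). The difference was above 0 for 9 of 10 members, and for Dnajb1 it was -0.15 (95% interval -0.60 to 0.30). Without deleted infused library 1 that of Hsph1 was 1.76 and passed (adjusted p = 0.0407), and over the 11 fits that each left out 1 library it ranged from 0.51 to 1.76. So although Hspa8 and Hsph1 passed only without infusion, the effects were not shown to differ.

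The gain effect minus the infused loss effect also passed for none of the 10 members, by limma, against 2.93% of 14319 genes, and 0 of the 10 had an unadjusted p below 0.05, against 16.3% of all genes. The difference was above 0 for 3 of 10 and its lowest adjusted p was 0.486. Without deleted infused library 1, Hsp90ab1 passed at -0.85 (adjusted p = 0.0351), and without control infused library 3, Hspa1b passed at -1.22 (adjusted p = 0.0266).

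Each library's log2 value minus its group mean was correlated between members over the 16 libraries, as a description in which all values of a library share its handling and its scaling. Of 45 pairs 44 had an r above 0, with a median of 0.53, against 51% and a median of 0.0095 over all pairs of the 10287 genes averaging 100 or more in each table. In the 2 groups with 2 libraries the deviations mirror each other. Over the 12 libraries of the other groups the members' median was 0.57, and that of all pairs 0.0072. Hspa1a and Hspa1b, whose reads cannot be cleanly divided, had an r of 0.97, and 0.92 without the 2 libraries farthest from the median of Hspa1a. Hspd1 and Hspe1, whose genes lie head to head on chromosome 1 with annotated spans overlapping by 112 bases, had an r of 0.91, and 0.84 without the 2 farthest on Hspd1. Hsph1 with Hspd1 reached 0.93 and Hspa8 with Hsph1 0.89. The lowest was that of Hspa1a with Hsp90ab1, -0.004.

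By this measure, and grouped after the values were seen, the 10 genes were of 3 kinds. Hspa8, Hsp90aa1, Hsp90ab1, Hspb1, Hsph1, Hspd1 and Hspe1 had a median r of 0.72 to 0.82 with the other 9 members. Hspa1a and Hspa1b had 0.34 and 0.28, and neither exceeded an r of 0.50 with any member but each other. Dnajb1 had 0.33 and its highest r with any member was 0.53. Of 10277 non-member genes averaging 100 or more in each table, those most like the members' mean over the 16 libraries were Lsg1 (r = 0.93), Utp4 (0.92), Ppid (0.89), Prpf3 (0.88) and Top1 (0.87), none of which passed in any of the 3 comparisons.

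**Figure D4:**
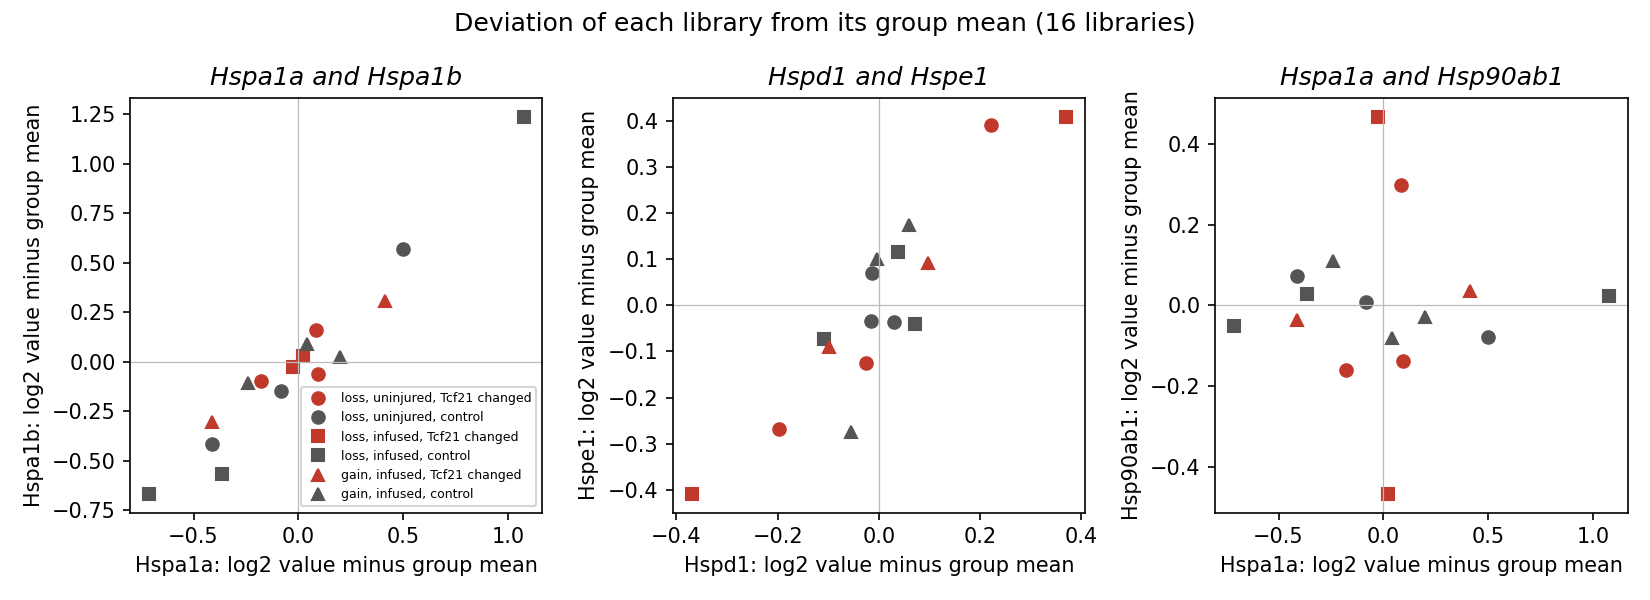
Each point is a library's log2(value + 1) minus its group mean for 1 gene against another (16 libraries; red, Tcf21 deleted or TCF21 overexpressed; grey, control; shapes give the table). Hspa1a and Hspa1b lie along a line (r = 0.97), as do Hspd1 and Hspe1 (r = 0.91), while Hspa1a and Hsp90ab1 do not (r = -0.004).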

How the data were processed

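RNA of sorted cardiac fibroblasts was amplified with SMART-seq v4, per the labels' protocols. The submitters' processing notes name kallisto, DESeq2 and GRCm38; tool versions and the gene annotation are not in the sources used here. What the authors deposited is a normalized signal: estimated counts, scaled within each of 3 tables. Low values (0.5 to 6) lay on whole steps, within 0.03, in 35.8% to 67.6% of cases, so reads were not recovered, depth is unknown and no count model was fitted.

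Groups follow the sample labels. Tests were made with limma 3.58.1 (R 4.3.3) for genes averaging 10 or more, on log2(value + 1) (lmFit, eBayes with a variance trend, no covariate, two-sided, Benjamini-Hochberg over all genes tested). This scale understates changes of low genes. Only the groups of a comparison entered each fit. No 2 columns were identical, and libraries within a table correlated at 0.944 to 0.981. The tests were run on simulated data first. The members and lists were chosen with earlier results of these data known. Named genes are the 10 members, Tcf21, from each other list those that passed and up to 4 with the smallest p (some are not printed), and the 5 genes most like the members. Positions and shared 31-base words come from GENCODE vM21 on GRCm38; the annotation behind the counts may differ. Alternatives varied the pseudocount, filter, scaling, variance model, library weights, replicate block and the splitting of Hspa1a and Hspa1b, and left out each library in turn.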

Additional observations from a re-analysis of the deposited data

How the results depend on the processing

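The calls on Hspa8, Hsph1 and Dnajb1 rest on few libraries and on the variance trend, and the cause was not tested. Without the trend, 94, 72, 25 and 263 genes passed in uninjured loss, infused loss, gain and gain minus loss, with 0 members in the loss comparisons. Library weights gave 949, 308, 1013, 39 and 780 genes in uninjured loss, infused loss, gain, the difference of loss effects and gain minus loss, with 1 member, Dnajb1 (-0.59, adjusted p = 0.038), in gain. The replicate numbers were not taken to pair the libraries, since not every correlation was over 0.1: that of deviations between same-numbered libraries was -0.05 to 0.03 in uninjured loss, -0.04 and 0.18 in infused loss and 0.062 and 0.095 in gain, and 1 of 3, 1 of 2 and 2 of 2 numbers correlated best with themselves. With the replicate block, 227, 1462, 1842, 79 and 901 genes passed in the order given for weights. It gave 1 member in uninjured loss (Hspa8, Hsph1 having an adjusted p of 0.0557), 4 in infused loss (also Hspa1a 0.94, Hspa1b 1.08 and Hspe1 0.72), 1 in gain (Dnajb1, -0.52) and 2 in gain minus loss (Hspa1a -1.41 and Hspa1b -1.27). In infused loss and in gain, control library 3 has no same-numbered partner, so the block takes it out of the comparison. The log2 fold changes with the block are there the same as with control library 3 left out. In both comparisons the block leaves little residual spread per gene, so these counts of calls lean on the spread that limma shares over genes. Directions turned for members near 0: in infused loss Hspa8 with weights (0.033), in gain Hspa8 with equal totals (0.093), weights (0.0099) and the replicate block (0.0299), in gain Hsp90ab1 likewise (0.099, 0.027 and 0.055), and in gain minus loss Hspa8 with weights (-0.016). Equal totals moved the share of calls that were higher to 36.6% in uninjured loss, against 45.4%, and to 56.1% in gain, against 38%. In gain minus loss the share moved to 73.4%, against 58.3%, and in the difference of loss effects to 45%, against 33.3%. The other pseudocounts, filters and scalings, and Hspa1a and Hspa1b summed, kept every count of calls within 1.5 times.

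With 1 library left out, a lone library being assumed to vary like the others, genes called ranged from 88 to 891 in uninjured loss, 32 to 175 in infused loss, 124 to 821 in gain, 12 to 57 in the difference of loss effects and 155 to 436 in gain minus loss, and members called from 0 to 2, 0 to 2, 0 to 1, 0 to 1 and 0 to 1. Of the log2 fold changes whose direction turned in such a fit, those of uninjured loss ranged from -0.0092 to 0.22 (Hsp90ab1), -0.44 to 0.00799 (Hspb1) and -0.20 to 0.13 (Hspe1). In infused loss they ranged from -0.32 to 0.25 (Hspa8), -0.046 to 0.83 (Hsp90aa1), -0.089 to 0.85 (Hsp90ab1), -0.41 to 0.57 (Hspb1) and -0.47 to 0.77 (Hsph1). In gain they ranged from -0.025 to 0.135 (Hsp90aa1), -0.041 to 0.055 (Hsp90ab1), -0.76 to 0.062 (Hspa1a), -0.44 to 0.17 (Hspa1b), -0.31 to 0.295 (Hspa8), -0.0092 to 0.19 (Hspd1) and -0.12 to 0.66 (Hsph1). In the difference of loss effects they ranged from -0.23 to 0.71 (Hsp90ab1) and -0.24 to 0.74 (Hspb1). In gain minus loss they ranged from -0.099 to 0.16 (Dnajb1), -0.78 to 0.099 (Hsp90aa1), -0.85 to 0.088 (Hsp90ab1), -0.27 to 0.33 (Hspa8), -0.68 to 0.0603 (Hspd1) and -0.50 to 0.74 (Hsph1).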
